A study of Mus musculus with 12 samples.

Results

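The genes of glycogen metabolism were followed in the colon and blood transcriptome of the dextran sulfate sodium (DSS) mouse model of ulcerative colitis (UC). They were the glycogen-targeting phosphatase subunits Ppp1r3b, Ppp1r3c and Ppp1r3d, the synthetic enzymes Ugp2, Gys1 and Gbe1, and the glycogen phosphorylases Pygl and Pygb, and all 8 were found among the 53801 counted genes and in the normalized table of each tissue. Ppp1r3b was chosen because its colon values ran against those of other genes that the study described as conserved, and the other 7 were chosen as its pathway, so the colon values of Ppp1r3b, and comparisons made from them, are given as a description with no test.

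Total RNA from colon and whole blood was sequenced in 12 libraries from 6 male C57BL/6 mice, 8 weeks old at purchase, that the study had selected by their disease activity score from a larger cohort. The disease label was the only record used here of which mice had DSS. By that label, mice 1, 2 and 4 (UC) received 1.5% DSS in drinking water for 7 days. Mice 7, 8 and 9, labelled control, received by their label the same water without DSS. All 6 mice were killed on day 8. The 4 groups (UC colon, control colon, UC blood, control blood) held 3 libraries each with no genetic modification in any of them. DSS is a sulfated polysaccharide that erodes the colonic epithelium.

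The labels were checked before the members were read. Colon libraries held 69181049 to 103662306 counts and blood libraries 80867247 to 142536804, where the 7SL RNA genes took 35.9% to 65.4% of the counts against 4.90% to 6.50% in the colon. The labels give the tissue in 2 fields that contradict each other, and the groups follow the tissue characteristic. Under it, Alas2 of red cells had at least 4678666 counts in each blood library and at most 4595 in each colon library, while epithelial Krt8 had at least 330742 counts in the colon and at most 88 in the blood. The disease labels did not match the inflammatory genes. The summed normalized count of 12 neutrophil markers was highest in mice 1, 7 and 9 in both tissues, of which only mouse 1 is labelled UC. Disease groups are therefore called "labelled UC" and "labelled control", and a direction drawn from them is a direction between labels. The authors' normalized tables list the mice in the order 1, 7, 9, 2, 4, 8, but no group was taken from a column order, and whether the disease label of each mouse is right could not be settled here.

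Glycogen is a branched glucose polymer. UDP-glucose, made by Ugp2, is added to the chain by glycogen synthase (Gys1 in most tissues, Gys2 in liver) and branched by Gbe1, while glycogen phosphorylase (Pygl, the liver form, Pygb, the brain form, and Pygm, the muscle form) releases glucose-1-phosphate. Protein phosphatase 1 switches synthase on and phosphorylase off, and the Ppp1r3 subunits bring it to the glycogen particle. Neutrophils are known to store glycogen and to draw on it where glucose and oxygen are scarce.

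Ppp1r3b (chromosome 8, 35375739 to 35388139, GRCm38), the targeting subunit best known from liver, had colon normalized counts of 2166 (mouse 1), 6342 (mouse 2) and 9783 (mouse 4) under the UC label, and 3058 (mouse 7), 7008 (mouse 8) and 3285 (mouse 9) under the control label. These are the authors' counts divided by a size factor per library, comparable within a tissue. The labelled groups overlapped, at 6097 ± 3814 against 4450 ± 2218 (SD, n = 3 each), and the order of the mice from low to high was 1, 7, 9, 2, 8, 4. In the blood the order was close to the opposite. Blood mice 1, 2 and 4 had 3528, 450.0 and 699.6 normalized counts of Ppp1r3b, while mice 7, 8 and 9 had 1465, 524.0 and 2520. Its 3 lowest colon libraries and its 3 highest blood libraries therefore came from the same mouse numbers, with a range of 4.52-fold in the colon and 7.84-fold in the blood.

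Ppp1r3c (chromosome 19, 36731731 to 36736653), a subunit of wide tissue distribution also called PTG, went the other way in the colon. Colon mice 1, 2 and 4 had 834.5, 529.5 and 491.6 normalized counts, while mice 7, 8 and 9 had 956.0, 371.8 and 951.1, so that its 3 highest libraries were the 3 lowest of Ppp1r3b. In the blood it had 3 counts in mouse 4 and 0 in each of the other libraries.

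Ppp1r3d (chromosome 2, 178411206 to 178414472), another targeting subunit, was low and even in the colon and variable in the blood. In the colon it had 421.5, 210.7 and 419.8 normalized counts in mice 1, 2 and 4, then 376.8, 316.4 and 395.9 in mice 7, 8 and 9. In the blood it had 3919, 636.7 and 557.2 in mice 1, 2 and 4, then 2091, 521.7 and 2712 in mice 7, 8 and 9, a 7.51-fold range in which mice 1, 7 and 9 again stood above the others.

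The synthetic enzymes follow. Ugp2 (chromosome 11, 21321138 to 21371201) had 13399, 8251 and 9440 normalized counts in colon mice 1, 2 and 4, then 10729, 8652 and 8805 in mice 7, 8 and 9. Its blood normalized counts were 965.6, 844.4 and 814.9, and 960.2, 603.2 and 1297, in the same order of mice. The blood values were highest in mice 1, 7 and 9, though mouse 7 (960.2) lay close above mouse 2 (844.4). Gys1 (chromosome 7, 45434844 to 45456619) had 1461, 1185 and 1123, and 1492, 1196 and 1445, in the colon, where mice 1, 7 and 9 were highest within a total range of 1.33-fold. Its blood normalized counts were 292.7, 129.4 and 138.3 in mice 1, 2 and 4, then 134.0, 64.3 and 89.4 in mice 7, 8 and 9, from 56 to 278 counts per library. Gys1 shares 310 exon bases with Ruvbl2 on the opposite strand, and Ugp2 shares 78 with Gm12043. The quantification set no strand, so reads of these stretches cannot be assigned to a gene. Gbe1 (chromosome 16, 70313949 to 70569716) had colon normalized counts of 2387, 2381 and 3265, and of 1918, 3016 and 1125, lowest in mice 9 and 7. In the blood its normalized counts stayed between 661.3 and 867.1.

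The phosphorylases differed from each other. Pygl (chromosome 12, 70190811 to 70231488) had 915.9, 370.1 and 420.7 normalized counts in colon mice 1, 2 and 4, then 743.6, 327.7 and 1292 in mice 7, 8 and 9. In the blood it had 23106, 3170 and 3083 in mice 1, 2 and 4, then 6480, 3153 and 10521 in mice 7, 8 and 9. In each tissue the 3 highest Pygl libraries were those of mice 1, 7 and 9. Pygb (chromosome 2, 150786735 to 150831758) had colon normalized counts between 11518 (mouse 7) and 19437 (mouse 2) and blood normalized counts between 3894 (mouse 1) and 5522 (mouse 8), with no such order in the colon and the lowest blood value in the mouse with the highest Pygl.

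**Figure D1:**
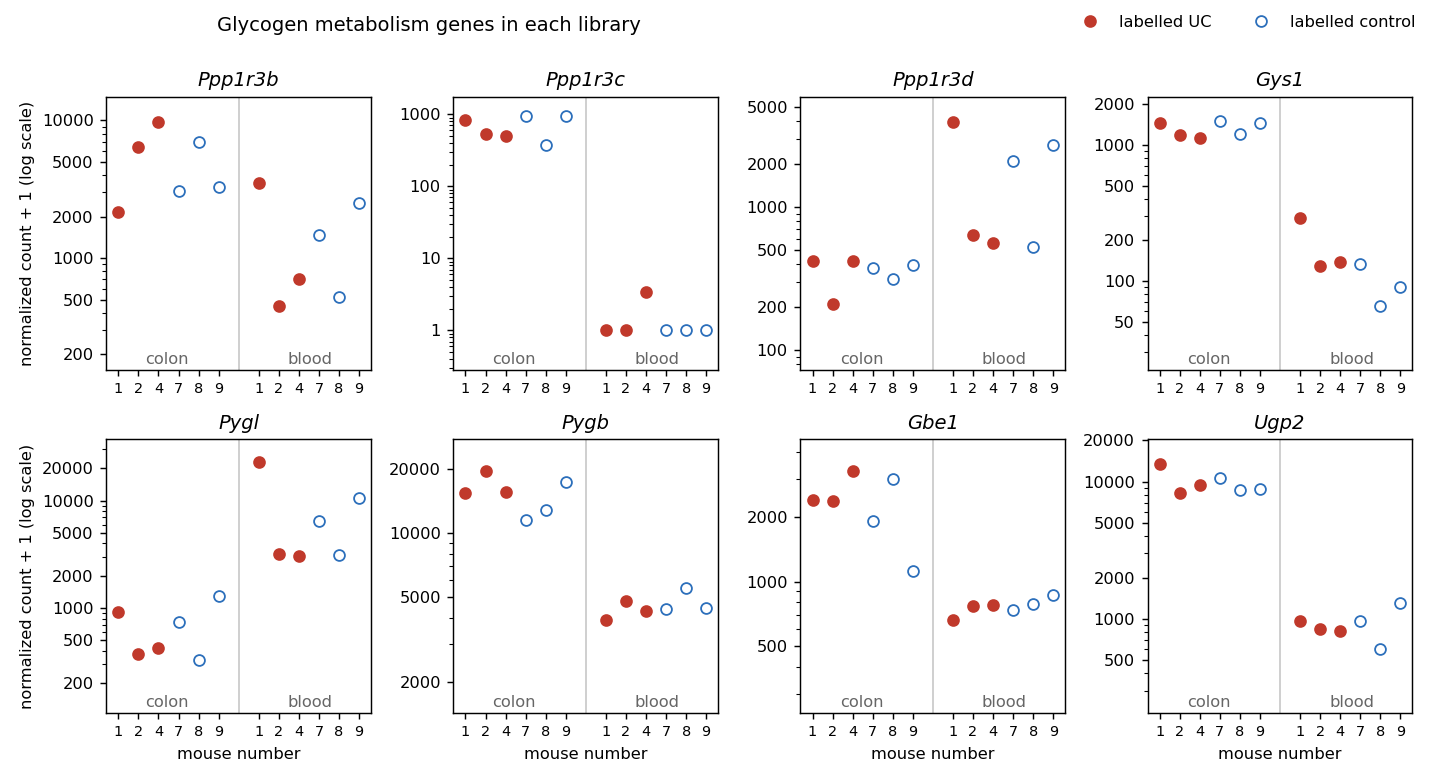
Normalized counts (plus 1, log axis) of the 8 genes in each library, by mouse number on the x axis with colon on the left and blood on the right of each panel. Filled red points are labelled UC and open blue points labelled control, and the scales of the tissues were normalized separately. Ppp1r3b is lowest in mice 1, 7 and 9 in the colon and highest in the same mice in the blood, and no panel parts the filled from the open points.

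The comparison of labelled UC with labelled control asked which genes differ between the labels in each tissue. The study reported widespread changes with colitis in both tissues. Under the labels used here, the 11 tested neutrophil markers had a median log2FC of −1.88 in the colon, with none of them above 0. In the blood 10 of the 12 tested were above 0, with a median of 1.05, and mouse 1 had the highest summed count. The labelled groups overlapped for these markers in both tissues. A member not called here can therefore not be read as unchanged in colitis. In the colon, none of the 8 members was an SDE gene (adjusted p of at most 0.05 and absolute log2FC over 1 in edgeR's quasi-likelihood test), where 0.0045% of 22238 tested genes were. The colon contrast chose Ppp1r3b, so nothing is read from this count. The log2FC of labelled UC over labelled control ran from −0.48 for Pygl to 0.43 for Ppp1r3b, with a median of 0.03 over the members and −0.01 over all genes. The Ppp1r3b value turned to −0.08 when mouse 4 was left out, and the Pygl value to 0.06 without mouse 9. The study gave Ppp1r3b as lower in the colon and higher in the blood with UC. Its colon sign under the labels used here, with all mice, is the opposite.

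In the blood, none of the 7 members with enough counts to be tested was an SDE gene, and the same test called 0% of 16759 genes. An unadjusted p under 0.05 was reached by 1.44% of the genes and by none of the 7 members, and DESeq2 called 6 genes, none of them a member. Gys1 had the largest log2FC, 0.95 ± 0.43 (SE, adjusted p = 0.9998), at 186.8 ± 91.8 normalized counts in labelled UC and 95.9 ± 35.3 in labelled control blood (SD, n = 3 each). Mouse 1 held the highest value, and the log2FC was 0.48 without it and 0.53 with library size alone. Pygl had a log2FC of 0.54 ± 0.81 (SE), which became −1.09 without mouse 1. Ppp1r3b had 0.05 ± 0.80 (SE), which became −1.37 without mouse 1. For Ppp1r3b, Ppp1r3d and Pygl the SE (0.80 to 0.83) was larger than the log2FC, so values of this size could not be told from the spread between mice. The median log2FC was −0.06 over the members and 0.04 over all genes. No interaction of label and tissue was called for the 7 members other than Ppp1r3b (edgeR, all 12 libraries, 0.0043% of 23258 genes called), although Ppp1r3c, with 3 counts in the blood, could hardly show any.

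The labelled groups overlapped for all 8 members in the colon, where 5.59% of the 22123 genes with a mean of at least 10 normalized counts did not overlap. They overlapped for all 7 members above this mean in the blood, where 6.5% of 16370 genes did not. Some members shared another order of the mice. Mice 1, 7 and 9 were taken as the 3 highest of Ppp1r3b in the blood, so Ppp1r3b is not counted there. Ppp1r3c, Gys1 and Pygl had their 3 highest colon values in mice 1, 7 and 9, as did 18.3% of genes, and Ppp1r3b had them in mice 2, 4 and 8, as did 14.7%. Ppp1r3d, Pygb, Gbe1 and Ugp2 had neither set in the colon. In the blood, Ppp1r3d, Pygl and Ugp2 had their 3 highest values in mice 1, 7 and 9, as did 11.8% of genes. No member had them in mice 2, 4 and 8, as did 7.29%. Gys1, Pygb and Gbe1 had neither set in the blood. This order was seen in the data and is not a group that the labels give, so no mean or test was made on it.

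Neutrophil markers moved with these orders, which is a description only. The set of mice came from Ppp1r3b in the blood, and Ppp1r3b was chosen for colon values that ran against conserved genes. The study's conserved genes include the markers S100a8, S100a9, Itgam and Lcn2. Their summed normalized count was 19168, 860 and 1029 in colon mice 1, 2 and 4 and 10391, 1146 and 59648 in mice 7, 8 and 9. In the blood it was 507414, 58596 and 51217 in mice 1, 2 and 4 and 160749, 43383 and 364792 in mice 7, 8 and 9. All 12 neutrophil markers had counts in each tissue, and 11 of the 11 measured above a mean of 10 in the colon and 10 of 12 in the blood had their 3 highest values in mice 1, 7 and 9. In the colon all 7 monocyte and macrophage markers had the same 3 highest libraries, with a summed range of 7322 to 31084. In the blood 4 of the 7 did (Cd68, Csf1r, C1qb and Cd14), and Adgre1, Ly6c2 and C1qa did not. The 7 markers of absorptive colonocytes did not move as one. Car4, Slc26a3, Aqp8 and Slc26a2 had their 3 highest colon values in mice 2, 4 and 8, as Ppp1r3b did, Car1 and Krt20 had them in mice 1, 7 and 8, and Cyp2c55 in mice 1, 4 and 7. Their summed normalized count was highest in mice 7 (1218510) and 1 (1035660) and lowest in mouse 9 (217345). The part of these cells in the members' values was not tested, and in bulk RNA fewer cells of a type and less RNA per cell cannot be told apart.

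**Figure D2:**
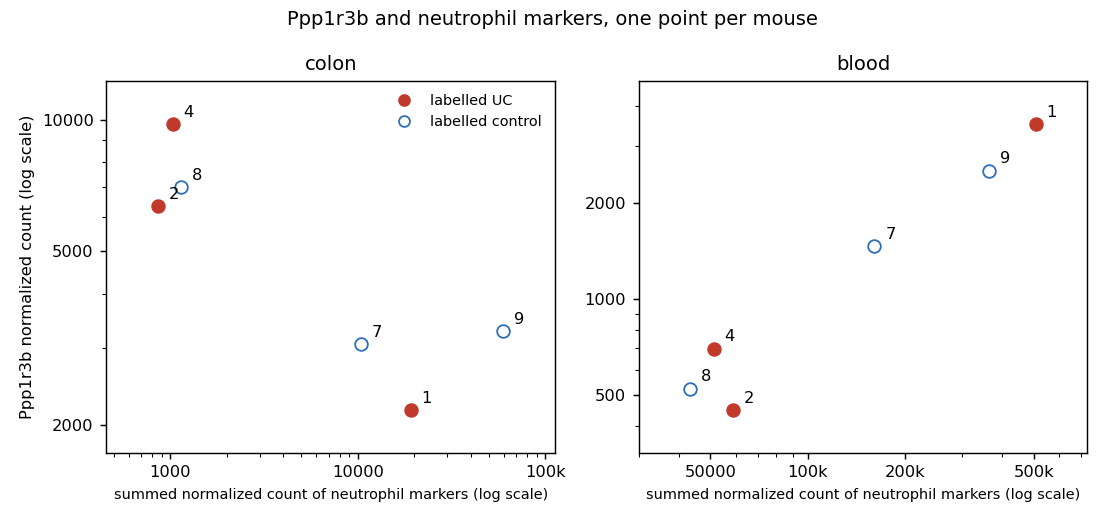
Ppp1r3b normalized count (y, log axis) against the summed normalized count of 12 neutrophil markers (x, log axis) in colon (left) and blood (right), with each point a mouse, its number beside it, filled red for labelled UC and open blue for labelled control. Mice 1, 7 and 9 lie at the right of each panel, low in the colon (2166 to 3285) and high in the blood (1465 to 3528). These mice were taken from Ppp1r3b in the blood, and its colon values chose the gene, so neither position is a test.

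The genes whose profile over the 6 libraries came closest to that of Ppp1r3b were sought in each tissue. Likeness was the root mean square difference between log2(normalized count + 1) profiles, each centred on its mean. In the blood, the closest of 11104 genes were Mcemp1 (0.13), Egln3 (0.16), Tlr2 (0.18), A530064D06Rik (0.18) and Arg2 (0.18). Mcemp1, a membrane protein of mast cells and myeloid cells, had 5547, 800.7 and 1006 normalized counts in mice 1, 2 and 4 and 2325, 696.3 and 3758 in mice 7, 8 and 9. Ppp1r3d ranked 27 (0.29) and Pygl 37 (0.30), while Ugp2, Gys1, Gbe1 and Pygb ranked between 1705 and 7153. In the colon, the closest of 15841 genes were Gm38351 (0.18), Ndrg2 (0.18), Iqcd (0.20), Prdm9 (0.21) and Lefty1 (0.21). Ndrg2 had 5589, 16133 and 19441 normalized counts in colon mice 1, 2 and 4 and 5987, 18795 and 7190 in mice 7, 8 and 9. No other member was near Ppp1r3b in the colon, with ranks from 2114 for Gbe1 to 14365 for Pygl.

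The promoters of Pygl and Ppp1r3d, the members nearest to Ppp1r3b in the blood, and of Ppp1r3c, which ran against it in the colon, are printed for their sequence. They are RefSeq sequences of 250 bases before to 50 after the gene start (GRCm38.p6, all on the minus strand) at chr12:70227634-70227933, chr2:178414414-178414713 and chr19:36736555-36736854. The RefSeq start of Pygl lies inside the longer GENCODE span of the gene given above, so its printed window is not upstream of the GENCODE start. Capitals mark matches, on either strand, to GAGGAA (the core bound by PU.1, a myeloid factor), TTGCNNAA (a C/EBP motif) and ACGTG (the core of the hypoxia response element, which also lies within the E-box CACGTG).
Pygl: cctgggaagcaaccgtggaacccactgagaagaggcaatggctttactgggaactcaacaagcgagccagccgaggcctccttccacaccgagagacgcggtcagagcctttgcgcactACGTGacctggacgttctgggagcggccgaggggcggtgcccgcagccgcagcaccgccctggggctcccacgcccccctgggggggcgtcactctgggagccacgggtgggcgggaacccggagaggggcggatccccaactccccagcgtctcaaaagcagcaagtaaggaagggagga
Ppp1r3d: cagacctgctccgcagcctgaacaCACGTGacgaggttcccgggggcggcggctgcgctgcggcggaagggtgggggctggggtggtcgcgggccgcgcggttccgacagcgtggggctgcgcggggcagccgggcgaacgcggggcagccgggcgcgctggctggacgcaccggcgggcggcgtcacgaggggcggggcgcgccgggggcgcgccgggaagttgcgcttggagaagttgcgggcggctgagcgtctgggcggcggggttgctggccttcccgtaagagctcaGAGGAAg
Ppp1r3c: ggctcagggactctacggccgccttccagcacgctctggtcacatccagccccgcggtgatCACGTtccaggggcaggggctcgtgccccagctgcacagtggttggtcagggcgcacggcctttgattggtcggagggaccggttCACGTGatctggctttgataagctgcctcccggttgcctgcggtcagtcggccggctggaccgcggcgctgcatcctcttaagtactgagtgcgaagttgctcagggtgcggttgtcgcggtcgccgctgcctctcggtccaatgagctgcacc
ACGTG lay in each of these promoters, once in Pygl and as an E-box read from both strands in Ppp1r3d and Ppp1r3c, with a further match in Ppp1r3c. It also lay in the promoter of Pygb and in 1 of the 2 promoters of Ugp2, and in 19.6% of all 32851 promoters of this length. GAGGAA lay in Ppp1r3d and Gys1 and in 28.3% of all promoters. TTGCNNAA lay in 1 promoter of Ugp2 and in 10.8% of all. A match is a description of the letters and not of binding.

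Colon and blood were then compared over all 12 libraries, a contrast the choice of members did not use. Blood libraries were depleted of globin as well as ribosomal RNA and colon libraries of ribosomal RNA alone, so tissue and depletion kit cannot be told apart. Leaving aside Ppp1r3b, chosen on its colon values, and Ppp1r3c, which passed the count filter only through the colon, 4 of 6 members were SDE genes, a share near the 58.5% of 23258 genes that were. Gys1 and Ugp2 were higher in the colon, as were 37.7% of genes, and Ppp1r3d and Pygl were lower, as were 20.8%. The median log2FC over all genes was 0.46.

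Pygl was 39.8-fold lower in the colon (log2FC −5.31 ± 0.69, SE, adjusted p = 4.07e-05, edgeR) and lower in 6 of 6 mice, with log2 differences from −6.38 to −4.61. Per kilobase of exon its level was 0.547 ± 0.307 CPM in the colon and 21.8 ± 20.8 CPM in the blood (SD, n = 6 each, scaled by TMM). Ppp1r3d was 16.0-fold lower in the colon (log2FC −4.00 ± 0.59, SE, adjusted p = 0.000117, edgeR), also in 6 of 6 mice, at 0.607 ± 0.139 against 9.73 ± 7.92 CPM per kilobase. Their blood values ranged 7.49-fold (Pygl) and 7.51-fold (Ppp1r3d) between mice, with mouse 1 the highest for each.

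Ugp2 was 3.30-fold higher in the colon (log2FC 1.72 ± 0.21, SE, adjusted p = 2.45e-05, edgeR) and Gys1 2.99-fold (1.58 ± 0.27, SE, adjusted p = 0.000285, edgeR), each in 6 of 6 mice. Ppp1r3c was past the threshold too, but its filter left no other outcome. It had 4193 counts over the colon libraries and 3 over the blood libraries, a ratio of 433 after scaling (95% exact interval 148 to 2100, counting error only).

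Pygb and Gbe1 did not pass the test, with log2FC of 0.04 ± 0.14 and −0.11 ± 0.22 (SE). Ppp1r3b, described with no test, had 0.05 ± 0.58 (SE), and the difference between tissues had opposite signs within the 6 mice. It was −2.43, −0.65 and −1.33 in mice 1, 7 and 9 and 2.12, 2.07 and 2.07 in mice 2, 4 and 8. For Pygb it lay between −0.45 and 0.33.

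The scaling sets these values. The median log2FC of all genes was 0.46 with TMM and 2.57 with library size alone, a shift upward that put all 8 members past the threshold. With library size alone Gbe1 turned to 1.98, Ppp1r3b rose to 2.13 and Pygb to 2.18, and the Ppp1r3b difference between tissues was above 0 in all 6 mice, while Pygl (−3.18) stayed lower in the colon in 6 of 6 mice. Ppp1r3d (−1.90) was then lower in 5 of 6, at −0.01 in mouse 4 and 0.07 in mouse 8.

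**Figure D3:**
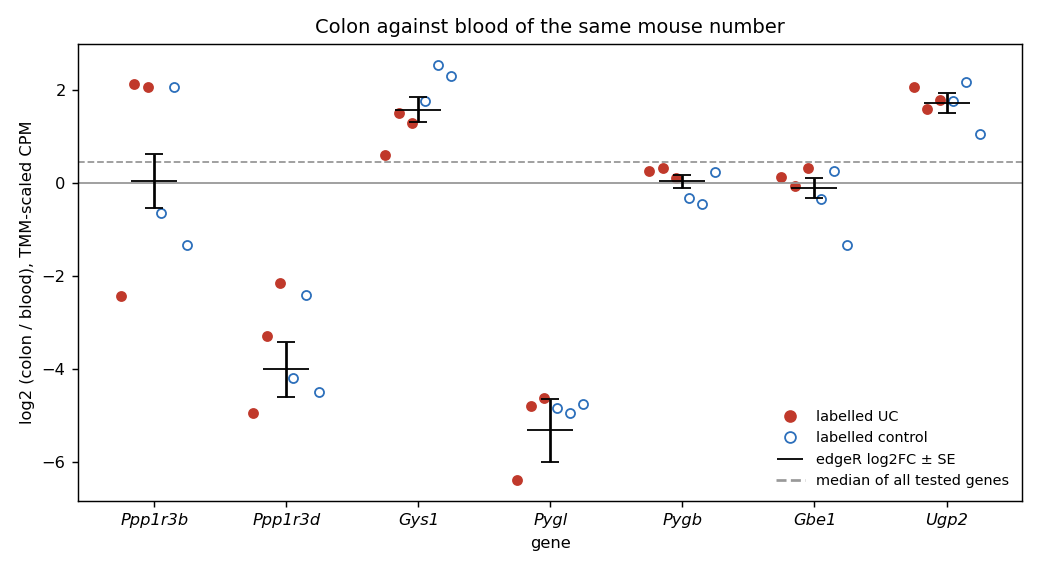
The log2 ratio of colon to blood (TMM-scaled CPM) of 7 genes, with a point for each mouse (filled red labelled UC, open blue labelled control), black bars for the edgeR log2FC ± SE, a solid line at 0 and a dashed line at the median of all tested genes (0.46). Ppp1r3c, with 3 blood counts, is left out. Pygl and Ppp1r3d lie below 0 in 6 of 6 mice and Gys1 and Ugp2 above, while Ppp1r3b lies on both sides.

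Shares within an enzyme family need no scaling between tissues. Pygl made up 2.91 ± 1.53% of the phosphorylase level per kilobase (Pygl, Pygb and Pygm) in the colon and 46.4 ± 20.3% in the blood (SD, n = 6). The difference was −43.5 ± 19.1 percentage points, lower in the colon in 6 of 6 mice (exact two-sided paired permutation test, p = 0.03125, the smallest that 6 pairs can give). Colon Pygl shares were 3.84%, 1.24% and 1.77% in mice 1, 2 and 4 and 4.10%, 1.66% and 4.87% in mice 7, 8 and 9. Blood shares were 78.6%, 30.3% and 32.4% in mice 1, 2 and 4 and 49.0%, 27.3% and 60.7% in mice 7, 8 and 9. The 3 highest shares lay in mice 1, 7 and 9 in both tissues. Pygb held 91.0% to 93.8% of the family in the colon, and 19.0% (mouse 1) to 68.6% (mouse 8) in the blood. Pygm stayed at 1.83% to 5.32% in either tissue.

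**Figure D4:**
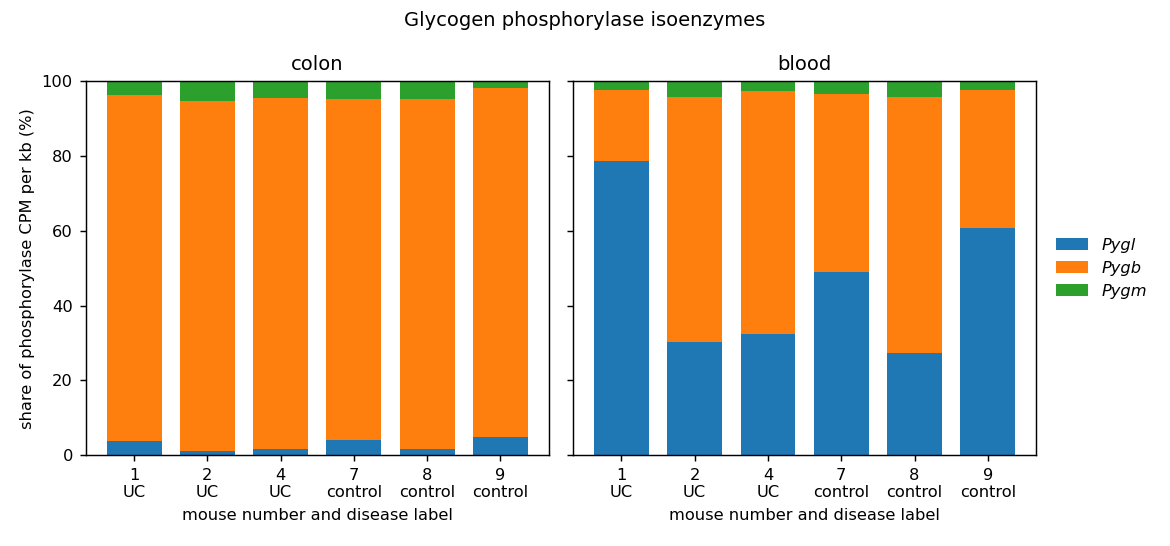
Share of each glycogen phosphorylase isoenzyme in their summed CPM per kilobase of exon (y, percent) for each mouse (x, with its disease label), colon on the left and blood on the right. Pygb fills at least 91.0% of each colon bar, and Pygl fills 27.3% to 78.6% of the blood bars.

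Ppp1r3b made up 60.1 ± 18.0% of the Ppp1r3 subunit level per kilobase in the colon and 29.3 ± 3.80% in the blood (SD, n = 6), a difference of 30.7 ± 18.5 percentage points, above 0 in 6 of 6 mice and given with no test. Its blood share stayed within 23.8% to 33.6% while its normalized count ranged 7.84-fold, and Ppp1r3d, which ranged 7.51-fold with the same 3 highest mice, held 50.9% to 69.8%. In the colon the share was 39.1%, 73.7% and 80.1% in mice 1, 2 and 4 and 45.1%, 74.8% and 47.6% in mice 7, 8 and 9. Ppp1r3c took 34.3%, 14.03% and 9.18% of the colon family in mice 1, 2 and 4 and 32.2%, 9.05% and 31.4% in mice 7, 8 and 9. The per-kilobase ratio of Ppp1r3b to Ppp1r3c was 1.14, 1.40 and 1.51 in colon mice 1, 7 and 9 and 5.25, 8.72 and 8.26 in mice 2, 4 and 8. Ppp1r3e held 2.96% to 8.55% of the colon family. Ppp1r3f held 11.6% to 12.4% of the blood family in mice 2, 4 and 8 and 1.85% to 2.85% in mice 1, 7 and 9. Its blood normalized count ranged only 1.54-fold (129.9 to 199.6), and a share also moves with the other subunits. Ppp1r3g had at most 0.180% and Ppp1r3a had no count in any library.

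**Figure D5:**
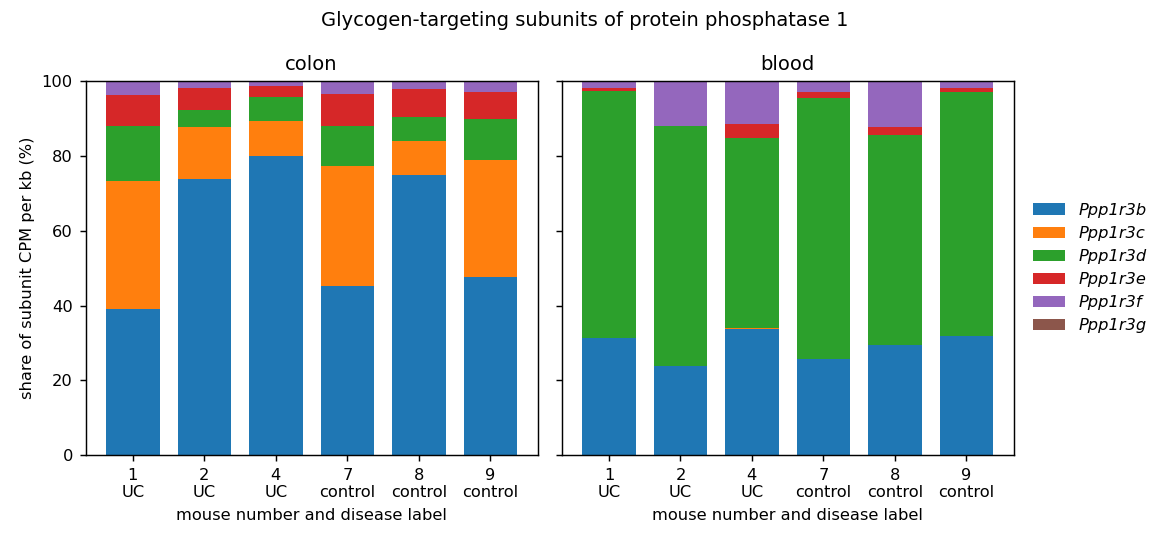
Share of each Ppp1r3 subunit in their summed CPM per kilobase of exon (y, percent) for each mouse (x, with its disease label), colon on the left and blood on the right. In the colon Ppp1r3b takes 39.1% to 80.1% with Ppp1r3c second in each mouse, and in the blood Ppp1r3d takes 50.9% to 69.8% with Ppp1r3b second.

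The rest of the pathway was read from a list of 24 genes. None of the 21 tested in the colon or the 19 tested in the blood was an SDE gene between the labelled groups, with log2FC medians of 0.03 and 0.10. Between colon and blood, 7 of 21 were higher in the colon and 2 lower, beside 37.7% and 20.8% of all tested genes. Those higher in the colon were the phosphoglucomutases Pgm1 (log2FC 2.42 ± 0.27, SE) and Pgm2 (2.31 ± 0.18, SE), which link glucose-1-phosphate to glucose-6-phosphate, the lysosomal glucosidase Gaa (2.55 ± 0.14, SE), the glycogen-binding protein Stbd1, the laforin and malin genes Epm2a and Nhlrc1, and the kinase Gsk3a, which phosphorylates glycogen synthase. Ppp1cb, a catalytic subunit of protein phosphatase 1, was lower in the colon at 14.8 ± 2.66 against 473.7 ± 214.7 CPM per kilobase in the blood (SD, n = 6, log2FC −5.00 ± 0.35, SE), and Ppp1r3f was lower by 1.78 ± 0.19 (SE). The liver synthase Gys2 had no count in any library.

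Genes of glucose supply were also compared between tissues. Of the 8 tested, 5 were higher in the colon and 2 lower, beside 37.7% and 20.8% of all tested genes. Hk2, Slc2a1, G6pc3 and Slc37a4 were among the higher, and Hk3 and Slc2a3 were the lower. The glucose transporter Slc2a3 was at 0.471 ± 0.322 CPM per kilobase in the colon and 42.5 ± 13.8 in the blood (SD, n = 6), and Slc2a1, another glucose transporter, at 26.7 ± 6.26 and 3.83 ± 2.93. The hexokinase Hk3 had its 3 highest values in mice 1, 7 and 9 in both tissues, with 299.3, 69.7 and 55.3 normalized counts in colon mice 1, 2 and 4, then 832.1, 54.2 and 814.3 in mice 7, 8 and 9. Slc2a3 had the same 3 highest libraries in both tissues, Hk2 in the colon alone and Slc2a1 in the blood alone. In all, 3 of 8 list genes with a mean of at least 10 had this order in the colon and 3 of 7 in the blood. Over all such genes the shares were 18.3% and 11.8%. In the pathway list of 24, 2 of 21 such genes had this order in the colon and 2 of 19 in the blood. The 3 highest values lay in mice 2, 4 and 8 for 5 of those 21 in the colon and 1 of those 19 in the blood. Over all genes with this mean the shares of that set were 14.7% and 7.29%. None of the 6 genes named here was an SDE gene between the labelled groups in either tissue.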

How the data were processed

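Colon and whole blood of 6 mice were profiled by total RNA-seq, with both tissues of a mouse sharing its number. Per the study's methods, the authors removed ribosomal reads, mapped to GRCm38 with STAR and quantified with StringTie 1.3.4c on Ensembl 92 without a strand setting. The deposited gene counts were derived by the authors from StringTie's transcript coverage, and the deposited normalized tables, a signal scale per tissue, are these counts divided by 1 factor per library.

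These counts went into edgeR 4.0.16 under R 4.3.3 (TMM, filterByExpr, quasi-likelihood test, Benjamini-Hochberg adjustment over all tested genes), each tissue alone or all 12 libraries for the interaction and for colon against blood. CPM per kilobase used exon lengths of GENCODE vM21. The Pygl share was compared by an exact sign-flip test over 6 mice (scipy 1.17.1). The same test of the Ppp1r3b share is not reported, since its colon values chose the gene. Replicates are separate mice.

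Colon and blood came from the same 6 animals, so the mouse number pairs them. Deviations from group means correlated between same-numbered libraries with r from 0.0187 to 0.245 over 15530 genes, over 0.1 in 3 of 6. The members, the gene lists and the tests were chosen with earlier results of these data known. All 8 members are named, with list genes that passed a test or belong to a member's family, Hk3, Slc2a1 and Slc2a3, and the 5 genes nearest to Ppp1r3b with a mean of at least 100 normalized counts. Alternatives were other scalings (RLE, library size only), filters, DESeq2 1.42.0, the mouse as a block, a joint fit, other lengths, and each mouse left out. The authors' fold changes were not used. Promoters came from RefSeq and matched 7 of 8 members. A gene of the glucose supply list is not reported here.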

Additional observations from a re-analysis of the deposited data

How the results depend on the processing

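No alternative called a member between the labelled groups in either tissue or in the interaction. Between colon and blood, 5 members were called under every alternative except library size alone, which called 8. The 5 include Ppp1r3c, whose filter left no other outcome, and the 8 include Ppp1r3b, described with no test. The main fit called 58.5% of all genes, and library size alone moved their median log2FC to 2.57. Neither count is therefore read as a result about the members. With the mouse as a replicate block, 0 members and 0 genes were called in the interaction (1 gene without it) and 5 members between tissues, so the block changed no member's call. Over all genes, DESeq2 called 6 in the colon (1 with edgeR), 6 in the blood (0 with edgeR) and 20 in the interaction, and library size alone called 1 in the blood. With a mouse left out, 0 genes were called in the colon, 0 to 3 in the blood and 1 to 2 in the interaction. Library size alone also turned the blood log2FC between labels of Ppp1r3b to −0.61 and of Pygl to −0.11, and the colon-to-blood log2FC of Gbe1 to 1.98. It moved the median blood log2FC between labels of all genes from 0.04 to −0.27.

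With a mouse left out, the log2FC between labels ran in the colon from −0.075 to 0.94 for Ppp1r3b, −0.22 to 0.20 for Ppp1r3d, −0.999 to 0.057 for Pygl and −0.10 to 0.26 for Ugp2, and in the blood from −1.37 to 0.65, −1.56 to 0.38, −1.09 to 1.02 and −0.36 to 0.16, and 0.48 to 1.28 for Gys1. Between colon and blood it ran from −0.38 to 0.98 for Ppp1r3b, −0.068 to 0.22 for Pygb and −0.21 to 0.080 for Gbe1. The Pygl share difference ran from −47.0 to −37.2 percentage points and the Ppp1r3b share difference from 26.9 to 35.3. For Pygl each p was the smallest that 5 mice can give (0.0625), which says nothing of stability. With 10 in place of 1 as the pseudocount, 4 of the 5 genes nearest to Ppp1r3b were shared in each tissue. Blood depth limits Ppp1r3c (3 counts) and Gys1 (56 to 278 counts per library).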
